A study of Mus musculus with 3 samples.

Results

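The genes described here are 10 members of the antigen presentation machinery: the MHC class II chain genes H2-Aa, H2-Ab1 and H2-Eb1, the invariant chain gene Cd74, the peptide loading genes H2-DMa and H2-DMb1, the class II transactivator gene Ciita, and Cd83, Cd86 and Cd40, which encode surface proteins of antigen-presenting cells. They were chosen by name, as non-control probes annotated to these genes, and account for 11 probes among 36095 genes or transcripts named on the array. RNA came from mouse yolk sac cells that had been sorted for VE-cadherin, an endothelial adhesion protein, together with CD45, a surface protein of blood cells. The control group was 1 sample from E10.5 embryos (E, embryonic day). The Tie-2-Etv2 group was 2 samples from embryos in which an Etv2 transgene was turned on by a Tie-2 Cre transgene; the labels give no stage for them. The Tie-2 promoter that drives Cre is active in endothelial cells and in blood cells descended from them. All 3 samples were of mixed strain (B6/CBA and others), and neither the MHC haplotypes nor the number of embryos pooled is given. Nothing in the labels says that the Tie-2-Etv2 samples were separate litters, so the spread behind the p-values may be technical.

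An MHC class II molecule is a dimer of an alpha and a beta chain that shows peptides from endocytosed proteins to CD4 T cells. The invariant chain escorts the dimer from the endoplasmic reticulum to endosomes and blocks its groove until proteases degrade it, and the DM dimer then exchanges the remaining fragment for a peptide. Most class II genes share a promoter module in which an X box is bound by RFX and CREB family proteins and a Y box, whose core on the strand shown is the reverse complement of CCAAT, is bound by NF-Y, with CIITA as the coactivator that all of them need. CD86 costimulates T cells through CD28, CD40 receives the T cell signal CD154, and CD83 stabilises class II and CD86 at the cell surface. Macrophages, dendritic cells and B cells are the professional antigen-presenting cells that carry these proteins.

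The promoter sequences are shown because they hold the module that class II genes share, although the genes did not share a difference below; no window was matched for H2-Ab1. RefSeq windows (GRCm38.p6) were matched for 4 of the 10 genes, H2-Aa, H2-Eb1, H2-DMb1 and H2-DMa. The 3 windows printed are the last 120 bases before the annotated start, 5′ to 3′ on the gene's strand. Capitals mark the Y box core GATTGG on either strand, the longest run of letters that the H2-Eb1 and H2-DMb1 windows share, which lies at the X box (X letters), and the CREB family palindrome TGACGTCA, which stands there in H2-Aa. Only windows with a Y core and either the X letters or the palindrome are printed, so these 3 hold the module by selection. H2-DMa had the Y core within 250 bases before its start but neither the X letters nor the palindrome.
H2-Aa, chr17:34287824-34287943, minus strand: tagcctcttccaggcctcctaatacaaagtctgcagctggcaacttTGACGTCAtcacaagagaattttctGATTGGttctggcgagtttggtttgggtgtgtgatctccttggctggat
H2-Eb1, chr17:34305747-34305866, plus strand: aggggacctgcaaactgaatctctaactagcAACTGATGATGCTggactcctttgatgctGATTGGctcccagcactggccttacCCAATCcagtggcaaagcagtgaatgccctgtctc
H2-DMb1, chr17:34153071-34153190, plus strand: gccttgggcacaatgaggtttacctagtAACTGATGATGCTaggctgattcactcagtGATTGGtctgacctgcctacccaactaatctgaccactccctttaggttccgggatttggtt

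The Y core followed the capitals at the X box after 17 bases in H2-Aa, 16 in H2-Eb1 and 17 in H2-DMb1, and it ended 43, 54 and 56 bases before the gene's start. Over both strands of 250 bases before the start, GATTGG was found in 14.6% of 32851 promoter windows, TGACGTCA in 1.55% and AACTGATGATGCT, the shared X letters, in 0.00609%, which is these 2 windows alone. The letters searched were picked after the sequences were read. The ETS core CCGGAA, searched because Etv2 encodes an ETS factor, was found in windows of H2-DMb1 and H2-DMa and in 12.0% of all windows. These matches are descriptions of letters and not of binding.

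H2-Aa is represented by 1 probe, and its sequence is shown because that gene was not detected. The 60 bases lie at chr17:34421285-34421344 on mm9, the build of the probe annotation, and start at base 227 of the transcript, on the minus strand.
H2-Aa probe: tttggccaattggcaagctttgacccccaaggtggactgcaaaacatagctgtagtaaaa

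Of the 55681 non-control probes, 43.5% to 48.5% were well above background on an array, and the lowest signal so called was 10.54 to 13.81 intensity units. The array of Tie-2-Etv2 replicate 1 was dimmer, the 75th percentile of its detected probes being 1199 units, where the control had 2073 and replicate 2 had 2092. Levels are therefore given as log2 signal relative to that percentile, while intensities are given as scanned, unscaled. Values of different probes are not comparable with each other. The Etv2 probes checked the labels: the probe that represents the gene gave 72.6 units in the control and 901 and 682 in the Tie-2-Etv2 samples, a log2 difference of 3.82 ± 0.62 (SE; limma's adjusted p = 0.237), and the other gave 2.32 ± 0.44. Cdh5, which encodes the sorted VE-cadherin, was 3.53 higher on the log2 scale, and Ptprc, which encodes CD45, was at -0.46 with a standard error of 0.32.

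The antigen presentation genes did not move as a block. Of the 10 genes, 8 were well above background on at least 1 array and were tested, while H2-Aa and Ciita were not well above background on any array. Cd83, Cd86, Cd40 and Cd74 were at least 2-fold lower than the control on both Tie-2-Etv2 arrays, H2-Ab1 was at least 2-fold higher on both, and H2-Eb1, H2-DMa and H2-DMb1 were neither. Over all 19580 genes tested, 6.64% were 2-fold lower on both arrays and 3.92% 2-fold higher, against 4 and 1 of the 8 tested members. Genes entered the test more easily through the control, where detection on 1 array sufficed, than through the Tie-2-Etv2 group, where 2 were needed. This could favour lower calls, and Cd40, among the 4 lower, was detected in the control alone. With detection required on all 3 arrays, 3 of 6 members were lower and 1 higher, beside 593 and 502 of 17228 genes. The median log2 difference of the 8 was -1.50, with -1.56 for replicate 1 and -1.20 for replicate 2, beside 0.07 over all genes tested. This median depended on the background correction. With normexp correction, which compresses dim signals, it was -0.21, beside 0.15 over all genes. With dim values raised to the lowest level that each array detected, an alternative chosen after seeing the data, the members again numbered 4 and 1, beside 5.15% and 3.17% of all genes. Replicate 1 alone gave 5 lower and 2 higher members, beside 11.3% and 9.06% of all genes, and replicate 2 alone gave 4 and 1, beside 8.35% and 4.57%. No member passed limma's test, with adjusted p from 0.247 to 0.910. No gene of the array passed it either (0%), although 2110 genes (10.8%), 5 of them members, had an unadjusted limma p under 0.05; the 4 members lower among these stand beside 6.36% of all genes. With 1 control array, the spread came from the Tie-2-Etv2 arrays alone, and an exact permutation test of 1 against 2 samples cannot give a p below 0.333.

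**Figure D1:**
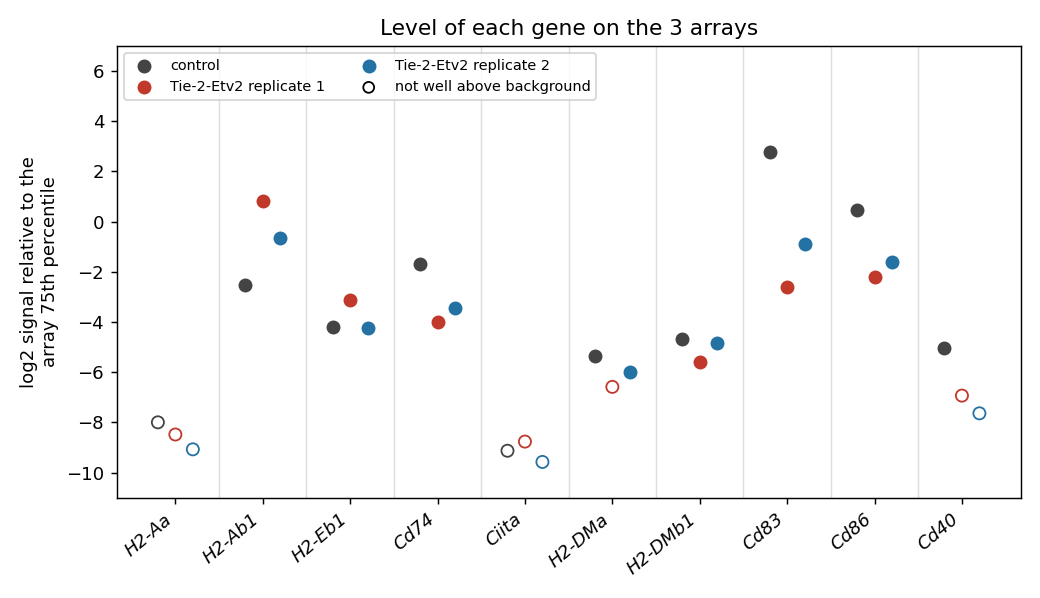
Log2 signal relative to the array's 75th percentile (y axis) for each of the 10 genes on the 3 arrays; filled points were well above background and open points were not. Cd83, Cd86, Cd74 and Cd40 lie highest on the control array and H2-Ab1 lowest there, while all 3 points of H2-Aa and Ciita are open; heights should be compared within a gene only.

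Cd83 showed the largest difference among the members. Its signal was 14364 intensity units in the control, 197 in Tie-2-Etv2 replicate 1 and 1141 in replicate 2, so both Tie-2-Etv2 values lay far under the control and replicate 1 lay further. After scaling it was 42.2-fold lower on replicate 1 and 12.7-fold lower on replicate 2, at a level of -1.74 ± 1.22 (SD, n = 2) against 2.79 in the control. The log2 difference was -4.53 ± 0.82 (SE; limma's adjusted p = 0.253). The probe lies at chr13:43898276-43898335 (mm9).

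Cd86, the ligand of CD28 and CTLA-4, gave 2832 units in the control, 263 in replicate 1 and 679 in replicate 2. It was 6.24-fold and 4.21-fold lower, with a log2 difference of -2.36 ± 0.40 (SE; limma's adjusted p = 0.247), the smallest adjusted p among the members. The Tie-2-Etv2 values lay 0.57 apart on the log2 scale, less than the gap of either to the control. Its probe lies at chr16:36603961-36604020 (mm9, minus strand).

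Cd40, a receptor of the TNF receptor family, was dim: 62.8 units in the control, where it was well above background, against 9.82 in replicate 1 and 10.51 in replicate 2, where it was not. Against the lowest detected level of each array it was at least 4.41-fold lower in the mean of both, with bounds of 3.44-fold for replicate 1 and 5.65-fold for replicate 2 (measured log2 difference -2.24; limma's adjusted p = 0.270). With normexp background correction, which compresses dim signals, the difference was -0.36, with 0.02 on replicate 1 and -0.75 on replicate 2, so the direction of Cd40 on replicate 1 depended on the background correction. The probe lies at chr2:164897085-164897144 (mm9).

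Among the class II chains, H2-Ab1, which encodes the beta chain of the A molecule, lay the other way. Its signal was 363 units in the control, 2129 in replicate 1 and 1323 in replicate 2, so both Tie-2-Etv2 arrays were brighter than the control before any scaling. It was 10.1-fold and 3.61-fold higher, at a level of 0.08 ± 1.05 (SD, n = 2) against -2.52, with a log2 difference of 2.60 ± 0.73 (SE; limma's adjusted p = 0.364). A further H2-Ab1 probe gave 363 units in the control, 1837 in replicate 1 and 1195 in replicate 2. It shares 51 bases with the first, within chr17:34406296-34406363 (mm9), so it is a separate spot but not an independent part of the transcript.

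H2-Aa, whose product is the alpha chain that pairs with that beta chain, gave 8.12, 3.35 and 3.89 units in the control, replicate 1 and replicate 2. All 3 values lay under the lowest signal called well above background, so no fold is given. The higher signal of the beta chain gene was thus not accompanied by a detected signal of the alpha chain gene. Whether the H2-Aa probe matches the alleles in these mice was not tested.

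H2-Eb1, the beta chain gene of the E molecule, gave 113 units in the control, 136 in replicate 1 and 109 in replicate 2. Its log2 difference was 1.06 on replicate 1 and -0.06 on replicate 2, so the replicates lay on either side of the control after scaling, and the mean was 0.50 ± 0.58 (SE; limma's adjusted p = 0.910). Its partner gene H2-Ea, added after its values were seen, is defective in some MHC haplotypes, b among them. Its probe gave 3.24, 2.61 and 2.67 units and was not well above background on any array.

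Cd74, the invariant chain gene, gave 645 units in the control, 74.0 in replicate 1 and 193 in replicate 2. It was 5.04-fold and 3.36-fold lower, with a level of -3.73 ± 0.41 (SD, n = 2) against -1.69 and a log2 difference of -2.04 ± 0.41 (SE; limma's adjusted p = 0.270). The escort of class II was therefore lower in the same samples in which H2-Ab1 was higher. The probe lies at chromosome 18, 60972075 to 60972132 (mm9).

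The DM genes were not 2-fold apart from the control on both arrays. H2-DMa, the DM alpha chain gene, gave 51.1 units in the control, 12.5 in replicate 1, where it was not well above background, and 32.8 in replicate 2. As measured it was 2.37-fold lower on replicate 1 and 0.66 lower on the log2 scale on replicate 2 (mean log2 difference -0.95 ± 0.41 SE; limma's adjusted p = 0.563). The fold on replicate 1 is not a bound, since its value lay above the lowest signal called well above background there. H2-DMb1, a DM beta chain gene, gave 81.6, 24.7 and 74.2 units, differing by -0.93 in replicate 1 and -0.15 in replicate 2 on the log2 scale, with a mean of -0.54 ± 0.47 (SE; limma's adjusted p = 0.849). With normexp background correction the mean differences were -0.05 for H2-DMa and -0.02 for H2-DMb1, and replicate 1 alone was at 0.15 and 0.05, so the direction of both genes on replicate 1 depended on the background correction. H2-DMb2, a neighbouring copy of the DM beta gene, gave 3.04, 2.39 and 2.47 units and was not detected. The H2-DMa probe spans chr17:34274300-34274863 (mm9), across an intron, and the H2-DMb1 probe chr17:34297109-34297168.

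Ciita, the coactivator gene on which class II transcription depends, gave 3.70 units in the control, 2.76 in replicate 1 and 2.74 in replicate 2. These values lay under the detection level of all 3 arrays, so a difference could not be measured in either direction. Its only probe starts at base 4063 of the transcript, at chr16:10526568-10526627 (mm9).

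**Figure D2:**
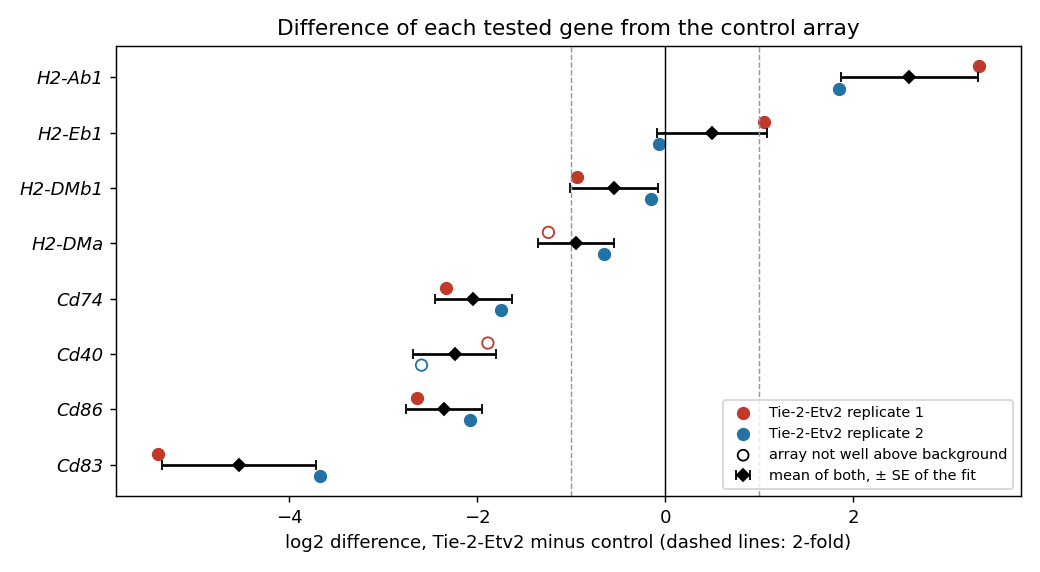
Log2 difference from the control array (x axis) for the 8 tested genes: red and blue points are Tie-2-Etv2 replicates 1 and 2, open where that array was not well above background, and diamonds are their mean with the standard error of limma's fit. H2-Ab1 lies beyond the 2-fold line on the right at 3.34 and 1.85, Cd83 furthest left at -5.40 and -3.67, and H2-Eb1 at 1.06 and -0.06.

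For 7 of the 8 tested members replicate 1 lay further from the control than replicate 2, the exception being Cd40, which was detected on neither. Replicate 1 also lay further out over the whole array, so this was not particular to the members. Of all genes tested, 11.3% were at least 2-fold lower and 9.06% higher on replicate 1, against 8.35% and 4.57% on replicate 2. The differences on replicate 1 and replicate 2 were 3.34 and 1.85 for H2-Ab1, -2.33 and -1.75 for Cd74, and -2.64 and -2.07 for Cd86.

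The 5 class II members on chromosome 17 lie within 178.8 kb (chr17:34274300-34453134, mm9), the class II region of the MHC. Probes for 9 other transcripts lay in this interval, and 5 of these were tested. Tap1, a subunit of the peptide transporter for class I, was at least 2-fold lower on both arrays, at -1.37 and -1.23 on the log2 scale. None was 2-fold higher on both by the probe that represents its gene. Shares over all genes tested were 6.64% lower and 3.92% higher. Tap2, the other transporter subunit, gave 1.35 and 0.42, and the immunoproteasome genes Psmb8 and Psmb9 gave 0.82 and -0.06 on replicate 1 and -0.19 and -1.05 on replicate 2. H2-Ob, a chain of the DM inhibitor DO, was not well above background in the control (14.9 units) and was well above it in both Tie-2-Etv2 samples (24.0 and 24.2). As measured it was 2.12-fold higher in their mean. A further H2-Ob probe gave 4.25, 33.5 and 18.4 units, and the remaining probe was not detected. The further probe measured 3.77 and 2.10 higher on the log2 scale, beyond 2-fold on both arrays. Its control value was not well above background, and the bounds were 4.20-fold on replicate 1 and 1.32-fold on replicate 2. H2-Ab1 thus stood between H2-Ob and the undetected H2-Aa, and genes at either end of the interval did not share its difference.

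**Figure D3:**
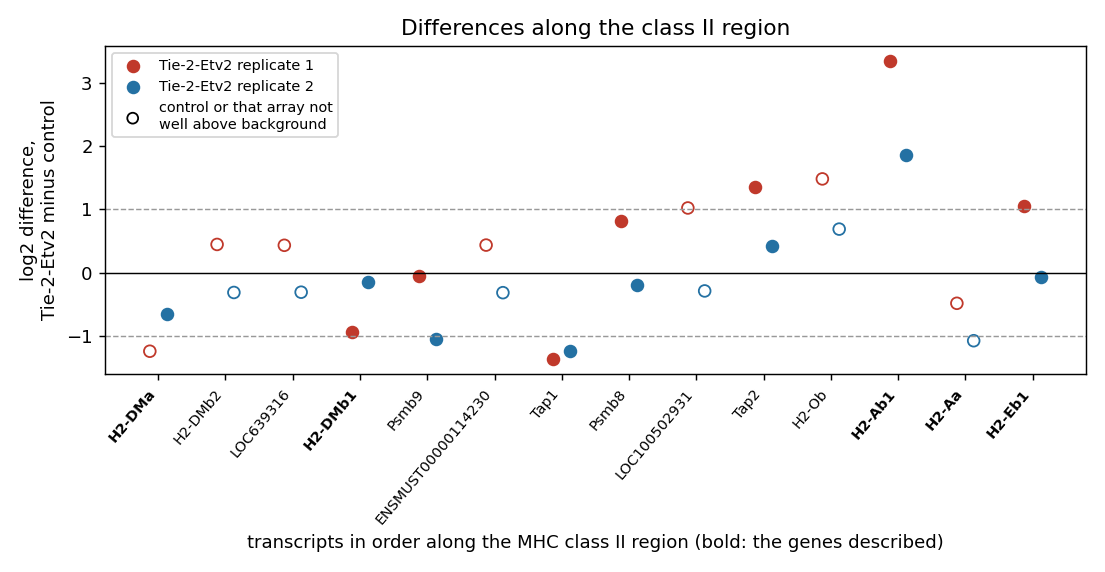
Log2 difference from the control (y axis) for 14 transcripts placed in order along the class II region, with Tie-2-Etv2 replicate 1 in red and replicate 2 in blue; open points had the control or that array not well above background. H2-Ab1 at 3.34 and 1.85 lies highest among the filled points and Tap1 lies under -1 on both arrays.

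The rest of the class II pathway was taken from a list of 20 further genes, of which 18 were tested, 5 at least 2-fold lower on both arrays and 1 higher, with a median log2 difference of -0.06. Shares over all genes tested were 6.64% lower and 3.92% higher. The 5 lower genes were all endosomal enzymes. Ctss, the cathepsin that trims the invariant chain in macrophages and B cells, gave 4280 units in the control, 52.7 in replicate 1 and 694 in replicate 2 (log2 difference -4.10 ± 1.31 SE). Lgmn, the asparaginyl endopeptidase legumain, gave 22156, 672 and 3265 units (-3.51 ± 0.72 SE). Ifi30, the thiol reductase GILT that unfolds antigens, gave 3065, 87.9 and 598 units (-3.35 ± 0.92 SE). Ctsb and Ctsl, lysosomal cathepsins, had log2 differences of -2.67 and -2.14, whereas Ctsd, a further cathepsin, was at -0.20. The processing enzymes were thus lower together with Cd74, with limma's adjusted p from 0.239 to 0.423 for these 5.

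Most factors of the promoter module differed little. Rfxap, Rfxank, Nfya, Nfyb, Nfyc and Creb1, subunits of the complexes on the X and Y boxes, had log2 differences between -0.08 and 0.56, and none was 2-fold apart on either array. Rfx5, the DNA-binding RFX subunit, was dim, at 11.5 units in the control, not well above background, and 15.9 and 17.5 in the Tie-2-Etv2 samples. After scaling, its log2 difference was 1.255 on replicate 1 and 0.59 on replicate 2. With the control raised to its lowest detected level, these were 0.99 and 0.33. H2-Oa, the partner of H2-Ob, gave 102, 119 and 104 units, with differences of 1.01 and 0.01. Marchf1, which encodes a ubiquitin ligase that removes class II and CD86 from the surface, was the gene counted as higher (log2 difference 1.56), yet its other probe gave -4.003, with 368, 3.73 and 82.4 units. The probes of Marchf1 therefore disagreed in sign, and its direction is not settled.

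Of 12 other costimulatory and inhibitory ligands, 8 were tested, 2 at least 2-fold lower and 1 higher on both arrays, beside 6.64% and 3.92% of all genes. The median log2 difference of the 8 was 0.01. That median depended on the choice of probe. Averaging all tested probes of a gene gave 3 lower and 1 higher, with a median of -0.79. Icosl, the ligand of the T cell receptor ICOS, gave 425 units in the control and 37.5 and 86.8 in the Tie-2-Etv2 samples, a log2 difference of -2.51 ± 0.36 (SE; limma's adjusted p = 0.235). Tnfsf9, the ligand 4-1BBL, gave 1576, 139 and 351 units (-2.44 ± 0.39 SE; limma's adjusted p = 0.237). Both thus lay lower together with Cd86. Pdcd1lg2, the inhibitory ligand PD-L2, gave 29.6 units in the control and 93.3 and 82.1 in the Tie-2-Etv2 samples (1.95 ± 0.54 SE; limma's adjusted p = 0.359), and Cd274, which encodes PD-L1, was at 1.003 on replicate 1 and 0.81 on replicate 2. Cd80, the close relative of Cd86, gave 702, 497 and 736 units with its brighter probe (log2 difference 0.17) and 112, 2.26 and 37.9 with its other probe (-3.21), which was not well above background on replicate 1. Vsir was at -1.61 on replicate 1 and -0.70 on replicate 2 with its brighter probe, and at -1.46 and -1.33 with its other probe. Cd70, Tnfsf4, Tnfsf18 and Vtcn1 were not well above background on any array.

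Upstream genes showed smaller differences. Of 10 genes that carry the interferon gamma signal to Ciita or act on it in myeloid cells, 9 were tested and 0 were 2-fold apart on both arrays, with a median log2 difference of -0.35. Shares over all genes tested were 6.64% lower and 3.92% higher. Irf8, a myeloid and lymphoid transcription factor, gave 5890 units in the control, 596 in replicate 1 and 3656 in replicate 2, which is -2.51 and -0.70 on the log2 scale. Ifngr2, a chain of the interferon gamma receptor, was at -1.33 and -0.84. Spi1, which encodes PU.1, was at -1.07 and -0.08. Of 12 genes of CD40 and NF-kB signalling, 11 were tested and 0 were 2-fold apart on both arrays, with a median of 0.16. Relb, an NF-kB subunit of the pathway downstream of CD40, had the lowest difference among them at -0.59, and Traf1, an adaptor of that receptor family, the highest at 0.96 (1.87 on replicate 1, 0.05 on replicate 2).

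Macrophage markers were lower together with Cd83, Cd86, Cd40 and Cd74, whereas dendritic and B cell markers did not share 1 direction. In such bulk samples, fewer cells of a type and less RNA per cell cannot be told apart. All 13 macrophage markers tested were at least 2-fold lower on both Tie-2-Etv2 arrays, and their median log2 difference was -4.30, from -5.21 for replicate 1 and -2.90 for replicate 2. For this and the lists below, the shares over all genes tested were 6.64% lower and 3.92% higher on both arrays. Summed levels add different probes, so each sum is set by its brightest probes and is also given without the largest. The macrophage sum was 76.5 times the array's 75th percentile in the control, 5.08 times in replicate 1 and 17.6 times in replicate 2 (45.2, 1.17 and 7.17 without Csf1r). All but Mertk and Timd4 on replicate 1, and all but Timd4 on replicate 2, were well above background. Cd83 at -5.40 and -3.67 lay near that median, whereas Cd74, Cd86 and the DM genes lay nearer to 0 and H2-Ab1 lay on the other side. Of 10 dendritic cell markers 8 were tested, 3 lower and 1 higher on both arrays. These counts and the sums use 1 probe per gene. Averaging all tested probes of a gene gave 4 lower and 1 higher, and moved the median log2 difference from -0.10 to -1.19. Batf3 and Flt3 had log2 differences of -4.05 and -2.30, Clec10a was at least 14.6-fold lower, and Clec9a was at least 5.84-fold higher. Itgax, which encodes CD11c, was at 0.48, while Xcr1 and Cd209a were not detected. The summed level of this list was 12.0, 11.6 and 13.4 in the control, replicate 1 and replicate 2, nearly all of it from Siglech, a marker of plasmacytoid dendritic cells, at a log2 difference of 0.12. Without Siglech the sum was 0.690, 0.195 and 0.189. Of 8 B cell markers 4 were tested, with Blnk at -2.92 the gene counted as lower. The defining genes Pax5, Ms4a1 and Ebf1 were not well above background on any array. The B cell list summed to 2.89 in the control, 0.873 in replicate 1 and 1.45 in replicate 2, and without Cd79b to 0.427, 0.129 and 0.118. Endothelial markers differed the other way, with 7 of 10 at least 2-fold higher on both arrays and a summed level of 10.47, 50.2 and 25.2 (2.16, 8.31 and 3.84 without Egfl7). The visceral endoderm list was lower in 5 of 5 tested markers and summed to 25.2, 1.46 and 10.6 (4.20, 0.203 and 1.74 without Afp), and the erythroid list was lower in 4 of 5 and summed to 40.3, 7.68 and 11.1 (15.2, 2.76 and 4.22 without Hbb-y). Of 7 monocyte and granulocyte markers 5 were tested and 3, S100a8, S100a9 and Mpo, were higher, with a summed level of 18.6, 50.03 and 50.5 (0.679, 12.6 and 6.56 without Mpo). The other tested markers lay lower: Ccr2 was at -1.14 on replicate 1 and -0.68 on replicate 2, and Elane at -0.06 and -0.22. Ly6c2 and Ly6g were not found on the array, so this list did not share 1 direction either. The part of these cell types in the differences of the antigen presentation genes was not tested.

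**Figure D4:**
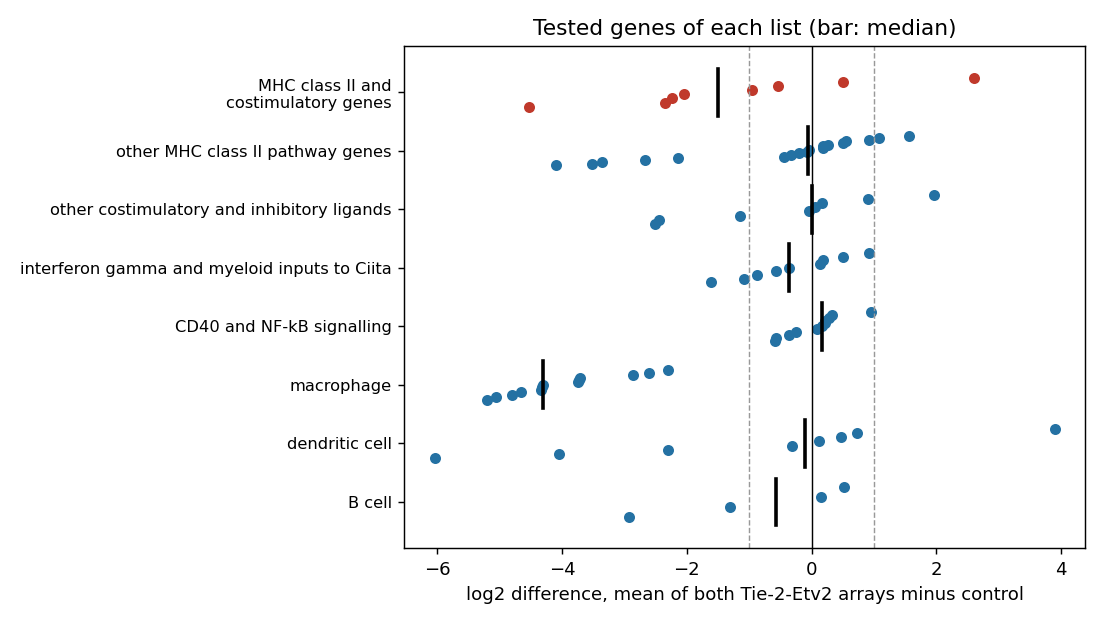
Log2 difference of the mean of both Tie-2-Etv2 arrays from the control (x axis) for each tested gene of 8 lists, with the median as a black bar and dashed lines at 2-fold. The 8 antigen presentation genes (red) spread from -4.53 to 2.60, all 13 macrophage genes lie between -5.21 and -2.30, and the CD40 and NF-kB genes lie between -0.59 and 0.96.

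Cd83, the member with the brightest control spot, was also compared with 17199 other genes detected on all 3 arrays by the Euclidean distance between their levels, each gene centred on its own mean over the 3 arrays. Slc40a1, the iron exporter of macrophages, was nearest at a distance of 0.0788, with 1619 units in the control, 20.8 in replicate 1 and 130 in replicate 2. It was followed by the chemokine gene Ccl7 (0.0853), the mannose receptor gene Mrc1 (0.247), the neonatal Fc receptor gene Fcgrt (0.294) and the growth cone protein gene Gap43 (0.378). The likeness rests on 3 points per gene and is a description.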

How the data were processed

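RNA of 3 sorted samples was labelled with Cy3 and hybridised to 1-colour Agilent arrays of design 028005. The deposited spot intensity is Agilent Feature Extraction's background-subtracted signal, not scaled across arrays (10.7.3.1 per the file headers, 10.7 per the submitters' processing notes). A table of log2 values that the authors deposited does not state its scale, centring or direction. Set against log2 intensity, its array differences fell within 0.01 of it in 100% of 55668 probes after a constant was removed for each Tie-2-Etv2 array (0.756 and -0.0161). They were centred on each row's median over the arrays, with column medians of 0, 0.136 and 0, so all 3 properties were settled from the values.

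Control and outlier spots were left out; no non-control spot was saturated. Log2 signal was averaged per probe, and each array's 75th percentile was subtracted, taken from the 22764 probes that every array detected, since under 50% were detected. Probes well above background on the control or on both Tie-2-Etv2 arrays were tested (26214 probes, 19580 genes). Groups were compared with limma 3.58.1 (lmFit, eBayes; R 4.3.3), two-sided, Benjamini-Hochberg adjusted over probes, threshold 0.05, with 1 residual and 3.92 total degrees of freedom; the lone control is assumed to vary like the Tie-2-Etv2 samples. The fit was run on simulated data with the same variance on every array, and only its mean estimated differences were checked against the simulated ones. That run cannot test the assumption about the lone control. Probe names were updated through RefSeq (26582 by accession, 2602 by symbol, 492 by synonym, 26005 kept). A gene was represented by its brightest tested probe. For bounds, a dim value under the lowest level an array detected took that level; bounds hold for this processing only.

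All 10 members are named. Of each list, at most the 5 members furthest from the control by the smaller of their differences were to be named as 2-fold apart; other genes of the lists are named for their role after their values were seen. Members and lists were chosen with earlier results of these data known. Alternatives changed background correction, scaling, filter, probe choice, value source and replicates. The values of 1 marker gene are not reported here.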

Additional observations from a re-analysis of the deposited data

How the results depend on the processing

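No member, and no gene, passed limma's test except with normexp background correction (614 genes) and with no filter on dim probes (440 genes), with prior degrees of freedom of infinity and of 20.1 in place of 2.92. The cause was not tested. With normexp, Cd83 (-4.30, adjusted p = 2.43e-17), Cd86 (-2.18), H2-Ab1 (2.45), Cd74 (-1.63) and Etv2 (2.97) passed; with no filter, Cd83 (-4.53) and Etv2 (3.82) did. The tested members kept the direction of their mean under every alternative with a test. H2-DMb1, H2-DMa and Cd40 shrank towards 0 with normexp, leaving 3 members 2-fold lower, as did the filter on all 3 arrays, which removes Cd40 and H2-DMa. Setting dim values to the lowest detected level, chosen after seeing the data, left 4 lower and 1 higher. Leaving out a Tie-2-Etv2 replicate leaves no residual degrees of freedom and so no test: the higher members then numbered 1 to 2 and the lower 4 to 5, and H2-Eb1 lay between -0.06 and 1.06. Over all genes, the 1300 at least 2-fold lower and 767 higher became 491 and 312 with normexp, 593 and 502 with the filter on all 3 arrays, and 2204 and 1774 on replicate 1 alone; with no filter 1317 were higher. Normexp moved the median difference of all genes to 0.15, from 0.07, and that of the tested members to -0.21, from -1.50. No paired analysis was possible because the control is 1 sample without a replicate number. Signal near background limits Ciita, H2-Aa, Cd40 and the DM genes.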

Other observations

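The MHC class I pathway presents peptides from the cytosol. Of 12 genes on this list 11 were tested, 1 at least 2-fold lower on both arrays (Tap1) and 0 higher, beside 6.64% and 3.92% of all genes. The median log2 difference of the 11 was -0.28. B2m, the light chain common to class I molecules, gave 17391 units in the control, 8601 in Tie-2-Etv2 replicate 1 and 10241 in replicate 2, which is -0.23 and -0.78 after scaling. H2-K1 and H2-D1, classical heavy chain genes of a family with near-identical copies whose signals are uncertain for that reason, had log2 differences of -0.28 and -1.02. Nlrc5, the class I counterpart of Ciita, was well above background on replicate 2 alone, at 15.5 units. Adjusted p from limma was 0.331 or more in all 11. Tap1 was the 1 gene with an unadjusted limma p under 0.05, beside 10.8% of all genes tested.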
